A study of Mus musculus with 10 samples.

Results

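Mitochondrial carriers and import genes were followed in ventricles of 2 transgenic mouse lines and their nontransgenic controls. The set held every gene whose symbol begins with Slc25, Timm or Tomm, together with Mtch1 and Mtch2. Each gene was read from the brightest probe set annotated to that symbol alone. This gave 57 genes out of the 12393 with such a probe set: 33 carriers (Slc25), 22 import genes (Timm and Tomm) and the 2 Mtch genes. Slc25a1 and Slc25a12 were not analysed here. Membership was read from the array annotation.

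Nearly all mitochondrial proteins are made in the cytosol and imported. Receptors and a channel of the outer membrane (the TOM complex, Tomm genes) take them in, small chaperones carry hydrophobic ones across the intermembrane space, and the TIM23 and TIM22 complexes (Timm genes) place them in the matrix or the inner membrane. The Slc25 carriers are themselves inserted by TIM22, and they move ADP, ATP, phosphate, dicarboxylates, amino acids, carnitine esters and cofactors across the inner membrane. In heart muscle, which draws most of its ATP from oxidation, the ADP/ATP carrier and the phosphate carrier feed ATP synthesis, and the malate-aspartate shuttle carries the reducing equivalents of glycolysis. Mtch1 and Mtch2 share the carrier fold but lie in the outer membrane, where Mtch2 acts as an insertase and a receptor for the cell death protein Bid.

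The hearts came from the alpha-TM180 line (TM180, 4 arrays), the alpha-TM175 line (TM175, 3 arrays) and nontransgenic controls (NTG, 3 arrays). Both lines carry an alpha-tropomyosin transgene, and the series was built around the early course of severe and mild hypertrophy. From background knowledge TM180 is the severe and TM175 the mild model. Within each genotype 1 array carried RNA pooled from 20 hearts (TM180 array 4, TM175 array 3 and NTG array 3) and each other array carried 1 heart. Age, strain and transgene promoter are not given in the sources used here, and it is not stated whether hearts measured singly also went into a pool. P-values here measure the spread between these extracts.

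Median intensity per array ran from 66.5 to 70.7 over 22626 probe sets. The first principal component (47.2% of the variance) separated the 3 pools from the 7 individual hearts, so calls below are given on genotype alone and with extract type, pool or single heart, as a term in the model. TM175 array 1 stood apart on sex-linked genes: its Xist intensity was 987.6, against 99.5 to 414.1 in the other arrays, and its Eif2s3y intensity was 7.23, against 35.3 to 60.8. The pools differed too: Xist read 393.7 in the TM180, 414.1 in the TM175 and 148.8 in the NTG pool. In the other single hearts it ran from 99.5 to 136.2. Eif2s3y read 35.3, 38.3 and 46.7 in the same 3 pools. The part of sex in the results below was not tested. Tpm1, the gene of alpha-tropomyosin, read 15587 to 17346 in TM180, 15434 to 16517 in TM175 and 11241 to 13205 in NTG arrays, with both lines above NTG and no overlap. The cardiomyocyte markers of the labelled tissue were present, and the 5 with a settled level summed to 35940 to 40000.0 in TM180, 36621 to 39512 in TM175 and 38884 to 42386 in NTG arrays. The 7 fibroblast and matrix markers summed to 8226 to 12645 in TM180, 6523 to 10085 in TM175 and 4496 to 6736 in NTG arrays. The 2 red blood cell markers, Hba-a1 and Alas2, summed to 178.1 to 198.0 in TM180, 286.8 to 297.0 in TM175 and 199.6 to 229.9 in NTG arrays, so that TM175 lay above both other genotypes without overlap. Hba-a1 was dim, at a mean of 25.7 over all arrays, so this sum was mostly Alas2. The part of these markers in the results below was not tested, and in whole ventricle fewer cells of a type and less RNA per cell cannot be told apart.

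Promoters of Mtch2, Slc25a13 and Timm10, the members called lower in the tests below, and of the outer membrane receptors Tomm20, Tomm22 and Tomm70a, which differ in their matches, are shown because nuclear respiratory factors are known regulators of mitochondrial genes. RefSeq (GRCm38.p6) gave windows from 250 bases before to 50 bases after a transcription start for 48 of 57 members. Capitals mark CCGGAAG, the core bound by GABP (also called NRF-2), GCGCATGC, within the site of NRF1, and AAGGTCA, the half-site of estrogen-related receptors, on either strand. Where 2 matches of CCGGAAG on opposite strands overlap, they form a palindrome.
Mtch2 (chr2:90846905-90847204, plus strand): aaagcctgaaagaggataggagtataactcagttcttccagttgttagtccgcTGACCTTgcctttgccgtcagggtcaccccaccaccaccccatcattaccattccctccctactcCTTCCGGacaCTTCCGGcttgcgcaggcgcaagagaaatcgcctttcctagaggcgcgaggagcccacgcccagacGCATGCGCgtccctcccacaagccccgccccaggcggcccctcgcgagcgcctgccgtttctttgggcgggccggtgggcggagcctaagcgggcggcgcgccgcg
Slc25a13 (chr6:6217124-6217423, minus strand): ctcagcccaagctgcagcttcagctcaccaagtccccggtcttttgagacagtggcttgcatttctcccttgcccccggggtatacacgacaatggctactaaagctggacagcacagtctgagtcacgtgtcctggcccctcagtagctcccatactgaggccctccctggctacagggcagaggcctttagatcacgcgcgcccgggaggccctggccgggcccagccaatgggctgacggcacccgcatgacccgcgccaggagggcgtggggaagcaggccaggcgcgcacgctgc
Timm10 (chr2:84826771-84827070, plus strand): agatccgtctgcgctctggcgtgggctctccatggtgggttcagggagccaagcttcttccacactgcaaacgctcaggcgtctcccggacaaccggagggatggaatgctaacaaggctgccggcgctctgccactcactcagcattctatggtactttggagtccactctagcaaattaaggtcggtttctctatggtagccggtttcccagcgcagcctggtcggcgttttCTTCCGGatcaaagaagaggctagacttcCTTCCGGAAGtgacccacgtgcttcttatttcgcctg
Tomm20 (chr8:126945872-126946171, minus strand): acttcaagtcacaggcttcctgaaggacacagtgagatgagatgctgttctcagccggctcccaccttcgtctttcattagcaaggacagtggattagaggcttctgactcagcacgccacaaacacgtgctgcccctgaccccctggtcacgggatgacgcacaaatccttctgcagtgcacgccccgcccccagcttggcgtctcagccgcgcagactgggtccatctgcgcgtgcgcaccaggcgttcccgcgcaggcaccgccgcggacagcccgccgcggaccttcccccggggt
Tomm22 (chr15:79670618-79670917, plus strand): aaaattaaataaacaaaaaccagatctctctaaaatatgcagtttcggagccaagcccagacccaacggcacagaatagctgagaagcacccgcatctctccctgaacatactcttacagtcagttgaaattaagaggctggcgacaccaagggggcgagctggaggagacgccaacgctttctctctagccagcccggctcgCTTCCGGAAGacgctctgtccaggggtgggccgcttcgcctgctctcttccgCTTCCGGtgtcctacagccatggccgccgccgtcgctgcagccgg
Tomm70a (chr16:57121464-57121763, plus strand): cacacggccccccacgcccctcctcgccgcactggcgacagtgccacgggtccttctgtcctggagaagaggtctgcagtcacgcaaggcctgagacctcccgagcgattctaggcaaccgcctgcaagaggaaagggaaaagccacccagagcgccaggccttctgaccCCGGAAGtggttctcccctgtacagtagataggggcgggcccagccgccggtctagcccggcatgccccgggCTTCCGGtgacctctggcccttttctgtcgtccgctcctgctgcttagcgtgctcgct

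The Mtch2 window held all 3 motifs: AAGGTCA beginning 197 bases before the start, CCGGAAG 132 and 122 bases before and GCGCATGC 56 bases before, each on the reverse strand. The Timm10 window held CCGGAAG 3 times and the Tomm22 window 3 times, each with 1 such overlapping pair, and the Slc25a13 window held none of the 3. Of the other receptors, the Tomm70a window held CCGGAAG 2 times and the Tomm20 window held none of the 3 motifs. CCGGAAG occurred in the promoters of 10 of 20 import genes with a window (50%) and of 6 of 26 carriers (23.1%). It occurred in 9.93% of all 27025 genes in the table and in 16.4% of genes with a probe set on the array. Its share was 36.9% among mitochondrial ribosomal genes and 13.9% among complex I genes. GCGCATGC was found for 1 import gene, Timm13, and 0 carriers, against 3.05% of all genes and 5.01% of genes with a probe set on the array. AAGGTCA was found for 3 import genes and 0 carriers, against 5.38% and 4.35%. A match is a run of letters and says nothing about binding in these hearts.

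Across the 22 import genes, TM180 hearts lay close to NTG, while TM175 hearts lay below NTG for nearly every gene. In TM180 the log2 difference was below 0 for 18 of 22 with a median of -0.08, against 49.2% of all 12393 genes below 0 and 50.8% above. Of these 22, 2 were below NTG without overlap and 0 above, against 4.19% and 5.98% of all probe sets. In TM175 the log2 difference was below 0 for 21 of 22 import genes, with a median of -0.26, whereas 41.6% of all genes were below 0, 58.4% were above and their median was 0.04. For 9 of the 22, every TM175 array was below every NTG array, against 8.11% of all probe sets that did not overlap in this direction, and 0 lay wholly above, against 8.42%. Both comparisons use the same NTG arrays, so they are not independent of each other. The sum of the red blood cell markers, mostly Alas2, also set TM175 apart, upward. Their median difference was -0.10 in TM180 with 1 of 2 above 0, and 0.33 in TM175 with 2 of 2 above 0. On genotype alone 0 of 2 were called in either. With extract type, 1 of the 2 was called lower in TM180 against TM175. The 7 fibroblast and matrix markers moved further, with median differences of 1.16 in TM180 (7 of 7 above 0) and 0.66 in TM175 (6 of 7 above 0). On genotype alone 3 of the 7 were called higher in TM180, beside 0.371% of all probe sets. In TM175 1 was called higher, beside 0.00884%. The part of either marker list in the import or carrier result was not tested.

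None of this passed the test for single import genes on genotype alone. With 1 mean per genotype in limma, 0 import genes and 0 carriers were called at an adjusted p under 0.05 in either line. For TM180, 0.371% of all probe sets were called higher and 0.133% lower. For TM175 the shares were 0.00884% higher and 0% lower. At an unadjusted p under 0.05, 0 import genes were lower in TM180 and 8 in TM175. Of all 22626 probe sets, 893 were lower in TM180 and 1640 in TM175 at that threshold.

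The level of the whole list in each array showed the same order. Taking the median over the 22 genes of the log2 intensity minus the gene's NTG mean, TM180 arrays 1 to 4 stood at -0.03, -0.08, -0.10 and -0.08. TM175 arrays 1 to 3 stood at -0.37, -0.27 and -0.20, and NTG arrays 1 to 3 at 0.14, -0.11 and 0.03. All 3 TM175 arrays were below all NTG arrays, and the TM180 arrays fell inside the NTG range. Among individual hearts the median difference in TM175 was -0.28 with 21 of 22 genes below 0. Between the single pools of TM175 and NTG it was -0.19 with 15 of 22 below 0. Without TM175 array 1 it was -0.21, and over the fits that each left out 1 array it ran from -0.39 without NTG array 2 to -0.17 without NTG array 1. In TM180 it ran from -0.19 without NTG array 2 to -0.03 without NTG array 1.

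**Figure D1:**
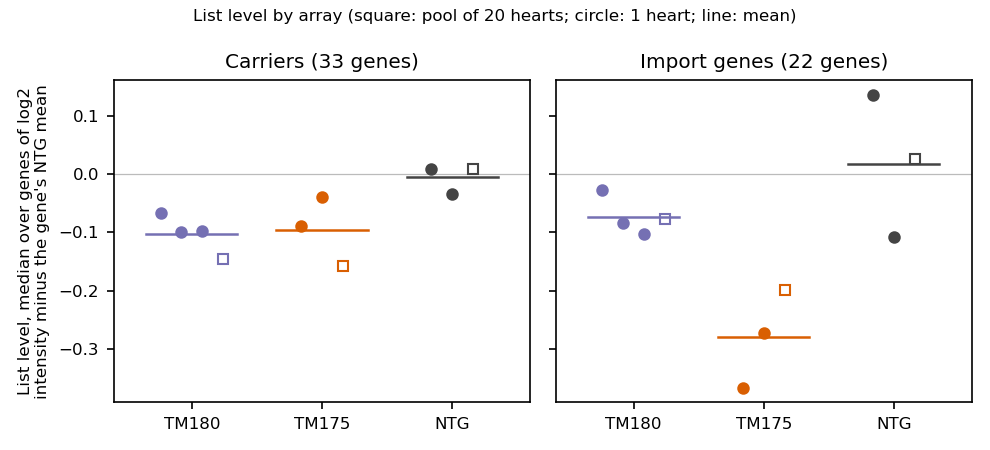
Level of the 33 carriers (left) and the 22 import genes (right) in each of the 10 arrays, as the median over genes of log2 intensity minus the gene's NTG mean; squares are pools of 20 hearts, circles single hearts, lines group means. For import genes the 3 TM175 arrays, at -0.37 to -0.20, lie below every TM180 and NTG array, and for carriers both lines lie slightly below NTG.

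The outer membrane receptors (Tomm20, Tomm22 and Tomm70a) had median differences from NTG of -0.03 in TM180 and -0.41 in TM175. The TM175 median of the 3 was -0.24 among single hearts and -0.74 between the pools. Tomm20 recognises presequences. Its intensity was 551.3, 499.7, 598.1 and 644.3 in TM180, 502.6, 430.3 and 539.9 in TM175, and 619.9, 602.8 and 700.3 in NTG arrays, each in array order. All TM175 arrays were below all NTG arrays, with a log2 difference of -0.39 ± 0.13 (SE, adjusted p = 0.249, and 0.0729 with extract type).

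Tomm22, which docks the receptors to the channel, read 564.1, 553.5, 514.0 and 492.0 in TM180, 404.6, 480.8 and 336.5 in TM175, and 563.4, 482.4 and 561.7 in NTG arrays. Every TM175 array was below every array of both other genotypes, with the smallest gap between TM175 array 2 and NTG array 2. The log2 difference from NTG was -0.01 ± 0.12 in TM180 and -0.41 ± 0.13 in TM175 (adjusted p = 0.256, 0.104 with extract type).

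Tomm70a, the receptor for carrier precursors held by cytosolic chaperones, read 222.6, 196.7, 256.3 and 215.5 in TM180, 190.3, 175.6 and 136.5 in TM175, and 209.2, 220.1 and 250 in NTG arrays. Its log2 difference was -0.03 ± 0.13 in TM180 and -0.45 ± 0.14 in TM175 (adjusted p = 0.249, 0.108 with extract type). The TM175 value was -0.23 among single hearts and -0.87 between the pools, so the pool of TM175 was the lowest array of all. A dimmer Tomm70a probe set, at 36.8 in NTG, was called lower in TM175 with extract type (log2 difference -0.51, adjusted p = 0.0428, but 0.211 on genotype alone and 0.0992 without TM175 array 1), and the remaining Tomm70a sets differed by -0.23 and -0.07.

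**Figure D2:**
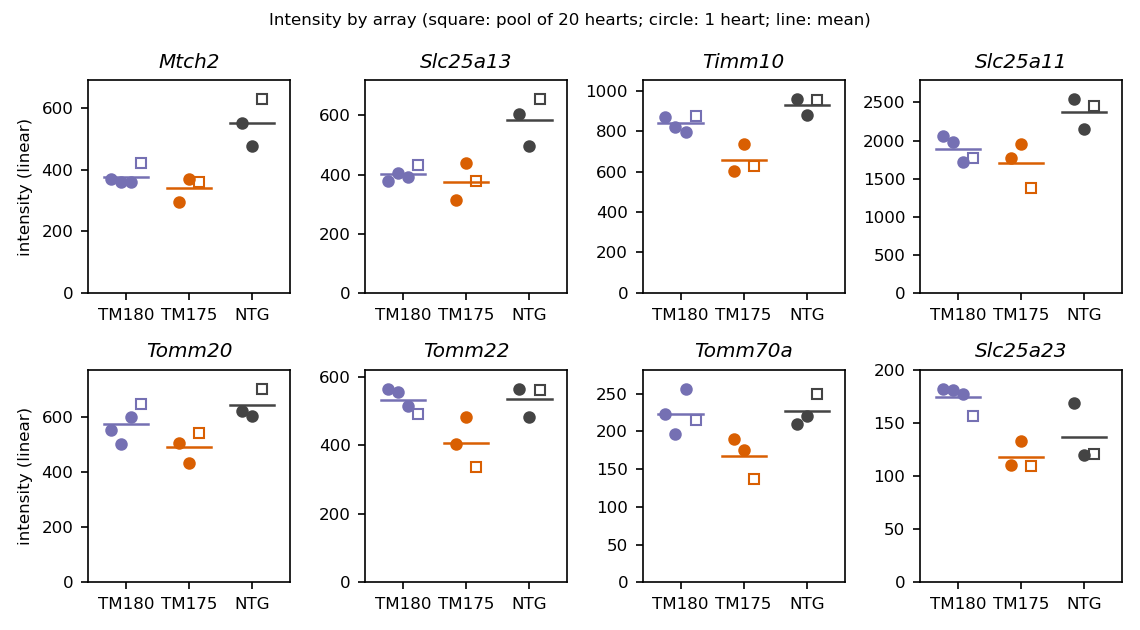
Linear intensity of 8 members in each array, TM180, TM175 and NTG from left to right, with each axis starting at 0; squares are pools of 20 hearts, circles single hearts, lines group means. Mtch2, Slc25a13 and Slc25a11 are lower than NTG in both lines, Timm10 and the Tomm genes are lowest in TM175, and Slc25a23 is highest in TM180.

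Of the outer membrane channel, Tomm40, the pore itself, read 368.8, 352.0, 197.5 and 289.3 in TM180, 228.8, 300.2 and 232.0 in TM175, and 382.6, 337.0 and 298.2 in NTG arrays. The groups overlapped and TM180 array 3 was the lowest of all 10. Tomm7, a small subunit, ranged from 295.4 to 453.1 in TM180, from 272.7 to 406.2 in TM175 and from 329.1 to 458.3 in NTG arrays. Tomm40l, a Tomm40 relative, ranged from 282.7 to 377.5 in TM180, from 228.2 to 278.7 in TM175 and from 247.9 to 338.0 in NTG arrays. Each of the 3 had a negative difference in TM175, from -0.42 for Tomm40 to -0.11 for Tomm40l. Among single hearts the median of the 3 in TM175 was -0.43, with 3 of 3 below 0. Between the pools it was 0.14, with 2 of 3 above 0. The cytosolic cochaperone Tomm34 stayed within 326.0 to 364.4 in all arrays.

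The 5 TIM23 genes all had negative differences in both lines, with medians of -0.19 in TM180 and -0.22 in TM175. Timm17a, a channel subunit, read 828.9, 866.4, 739.0 and 914.7 in TM180, 632.8, 748.4 and 744.0 in TM175, and 1044, 808.2 and 1026 in NTG arrays. Every TM175 array was below every NTG array (log2 difference -0.43 ± 0.13, adjusted p = 0.227, 0.0809 with extract type). For Timm23, the pore, the range was 1911 to 2085 in TM180, 1755 to 2076 in TM175 and 2029 to 2484 in NTG, with differences of -0.21 in TM180 and -0.22 in TM175.

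Timm44, which tethers the import motor, ranged from 897.2 to 942.1 in TM180, below the 965.1 to 1108 of NTG without overlap, while TM175 ran from 804.8 to 1157. Timm17b differed by -0.01 in TM180 and -0.10 in TM175. Timm50, the TIM23 receptor, was lowest in 1 single heart of each genotype: TM180 array 3 at 112.2, TM175 array 1 at 101.1 and NTG array 2 at 132.3. The remaining arrays of Timm50 ran from 163.5 to 185.4 in TM180, from 143.6 to 170.8 in TM175 and from 195.4 to 217.6 in NTG. Timm13 was low in the same 3 hearts, at 261.2, 246.5 and 286.7, beside 334.5 to 495.6 elsewhere. For both genes the ranges of all 3 genotypes overlapped.

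In the TIM22 branch and its small chaperones, 7 of 9 genes were below 0 in TM180 with a median of -0.08, and 8 of 9 in TM175 with a median of -0.27. Timm10 partners Timm9 in the ring that shields carrier precursors on their way to TIM22. Timm10 read 868.8, 819.4, 795.6 and 874.3 in TM180, 602.8, 738.4 and 629.3 in TM175, and 956.9, 878.5 and 952.7 in NTG arrays. The 3 genotypes formed 3 separate bands with no overlap. With genotype alone the TM175 difference was -0.51 ± 0.10 (adjusted p = 0.146). With extract type in the model Timm10 was called lower in TM175, to 0.705 of NTG (95% interval 0.605 to 0.820, adjusted p = 0.0469). Of all probe sets, 0.734% were called lower and 0.128% higher there. The call was lost in 8 of the 10 fits that each left out 1 array, and held only without TM175 array 2 or without NTG array 2. The TM180 difference was -0.15 ± 0.09 (adjusted p = 0.557 with extract type).

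Timm8b, another chaperone subunit, ranged from 585.0 to 727.3 in TM180, from 522.7 to 610.6 in TM175 and from 684.6 to 902.1 in NTG arrays. Its TM175 difference was -0.43 ± 0.14 (adjusted p = 0.243). Timm10b ranged from 291.4 to 399.8 in TM180, from 254.0 to 306.7 in TM175 and from 324.1 to 417.2 in NTG, a difference of -0.08 in TM180 and -0.40 in TM175. Timm8a1, mutated in human deafness-dystonia syndrome, ranged from 308.5 to 376.2 in TM180, from 277.7 to 306.4 in TM175 and from 316.8 to 392.6 in NTG. Both genes kept every TM175 array below every NTG array. Timm29, a further TIM22 subunit, differed by -0.21 in TM180 and by -0.27 in TM175, where every array was below NTG. Timm22, the insertion channel, differed by 0.02 in TM180 and -0.18 in TM175 with overlapping arrays. Timm9 was read from a dim set, at 19.4 to 22.4 in TM180, 16.9 to 18.8 in TM175 and 18.0 to 25.9 in NTG. The level of Timm8a2 could not be settled from the deposited digits, so only its differences, 0.09 in TM180 and 0.08 in TM175, are given. Timmdc1, which shares the name stem but is known as a complex I assembly factor, differed by -0.00 in TM180 and -0.02 in TM175.

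**Figure D3:**
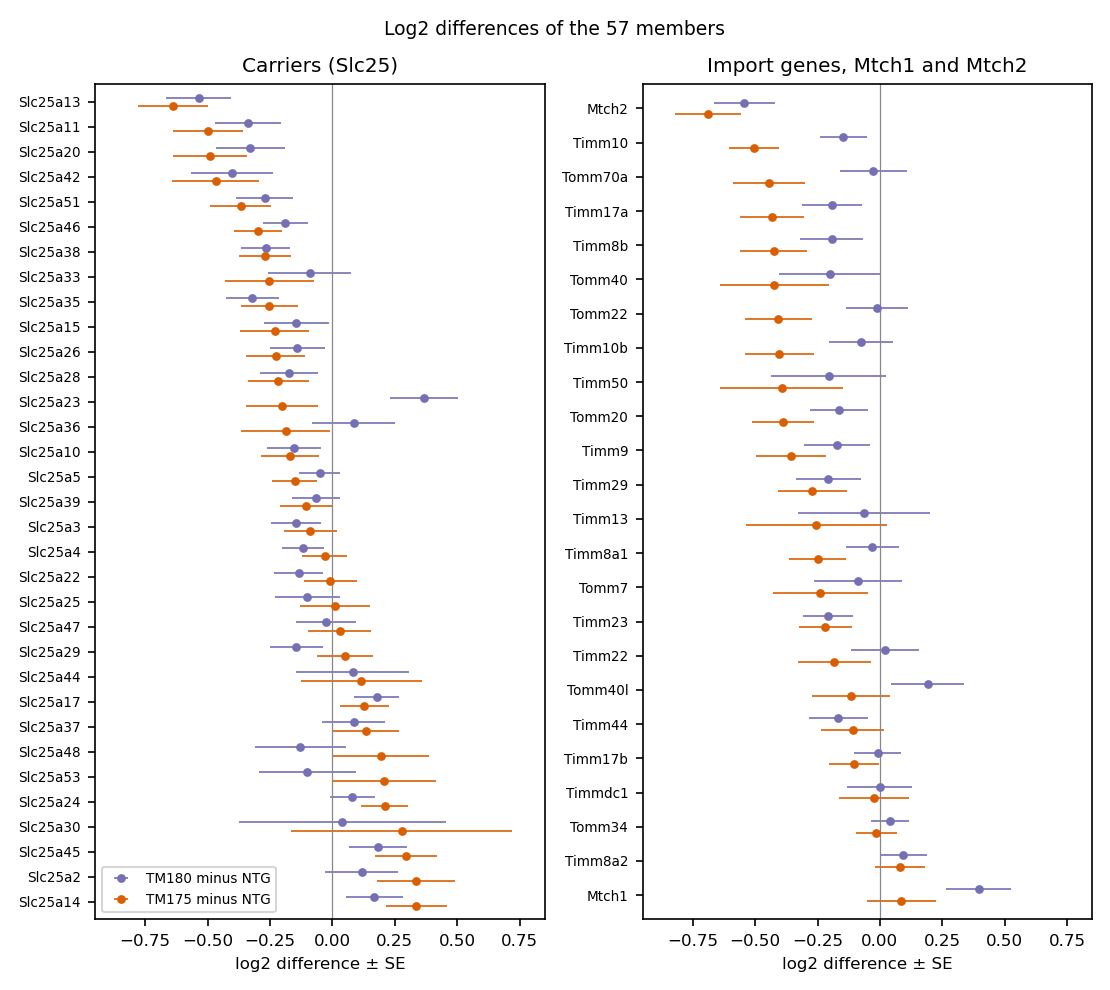
Log2 difference from NTG with its standard error for each of the 57 members, TM180 above TM175 in each pair, sorted by the TM175 value; carriers left, import and Mtch genes right. The TM175 points lie below 0 for 21 of 22 import genes but for 20 of 33 carriers.

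Carriers spread to both sides of 0. In TM180, 23 of 33 were below 0 and 10 above, with a median of -0.12. In TM175, 20 were below and 13 above, with a median of -0.11. In TM180, 5 carriers were below NTG without overlap and 1 above, against 4.19% and 5.98% of all probe sets. In TM175 these counts were 9 below and 1 above, against 8.11% and 8.42%. The 7 cardiomyocyte markers had medians close to those of the carriers, -0.11 in TM180 with 0 of 7 above 0 and -0.12 in TM175 with 1 of 7 above 0, and their part in the carrier result was not tested. At an unadjusted p under 0.05, 7 carriers were lower and 1 higher in TM180, and 7 lower and 3 higher in TM175. Of all 22626 probe sets, 893 were lower and 1221 higher in TM180, and 1640 lower and 1312 higher in TM175. The list level was -0.07, -0.10, -0.10 and -0.15 in TM180, -0.09, -0.04 and -0.16 in TM175, and 0.01, -0.03 and 0.01 in NTG arrays.

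The carriers of the malate-aspartate shuttle and of dicarboxylates lay lowest. All 4 measured (Slc25a10, Slc25a11, Slc25a13 and Slc25a22) were below 0 in both lines, with medians of -0.25 in TM180 and -0.33 in TM175. Slc25a13 is citrin, an aspartate-glutamate carrier. It read 376.7, 406.6, 390.9 and 430.9 in TM180, 314.6, 437.8 and 377.6 in TM175, and 603.3, 496.6 and 654.4 in NTG arrays. Both lines were wholly below NTG and overlapped each other. On genotype alone its log2 difference was -0.54 ± 0.13 in TM180 (adjusted p = 0.126) and -0.64 ± 0.14 in TM175 (adjusted p = 0.167).

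With extract type in the model Slc25a13 fell in both lines. It was at 0.696 of NTG in TM180 (95% interval 0.581 to 0.833, adjusted p = 0.0455) and at 0.643 of NTG in TM175 (0.530 to 0.778, adjusted p = 0.0469). Of all probe sets 0.539% were called lower and 1.47% higher in TM180 in that model. The difference was negative in each fit without 1 array, from -0.63 to -0.47 in TM180 and from -0.79 to -0.53 in TM175. The call, however, held in 2 of 10 such fits in each line. In TM180 those were the fits without TM175 array 1 or 2, and in TM175 those without TM175 array 2 or NTG array 2.

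Slc25a11, the oxoglutarate-malate exchanger of the same shuttle, read 2059, 1977, 1719 and 1776 in TM180, 1774, 1951 and 1371 in TM175, and 2540, 2146 and 2454 in NTG arrays. All 7 transgenic arrays were below all 3 controls. The difference was -0.34 ± 0.13 in TM180 (adjusted p = 0.408, 0.170 with extract type) and -0.50 ± 0.14 in TM175 (adjusted p = 0.207, 0.0713 with extract type). Slc25a10, the dicarboxylate carrier, differed by -0.15 in TM180 and -0.17 in TM175. Slc25a22, a glutamate carrier, differed by -0.14 in TM180, below NTG without overlap, and by -0.01 in TM175.

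The carriers that serve ATP synthesis directly had fold differences close to 1. Slc25a4, the ADP/ATP carrier of heart and muscle, read 7296, 6903, 7319 and 7955 in TM180, 7362, 7917 and 8168 in TM175, and 7770, 8086 and 8081 in NTG arrays. The fold difference was 0.922 in TM180 (95% interval 0.811 to 1.05) and 0.979 in TM175 (0.853 to 1.12). Slc25a5, the more widely expressed ADP/ATP carrier, ranged from 2832 to 3210 in TM180, from 2660 to 2919 in TM175 and from 3020 to 3185 in NTG. Slc25a3, the phosphate carrier, ranged from 5336 to 5925 in TM180, from 5363 to 6496 in TM175 and from 5608 to 6650 in NTG, with fold differences of 0.904 in TM180 and 0.941 in TM175. A p that missed the threshold does not show that these levels were equal.

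Among related nucleotide carriers, Slc25a42, which takes up coenzyme A, ranged from 295.4 to 459.6 in TM180, from 302.7 to 335.2 in TM175 and from 381.8 to 511.7 in NTG. All TM175 arrays were below NTG (log2 difference -0.47 ± 0.17, adjusted p = 0.311), and TM180 array 1 alone reached the NTG range. Slc25a24, a calcium-regulated ATP-Mg/phosphate carrier, was the 1 carrier above NTG without overlap in TM175, with intensities of 23.6 to 25.8 against 20.5 to 22.5. Slc25a17, a peroxisomal carrier, was the 1 above NTG without overlap in TM180, at 70.8 to 80.8 against 62.6 to 69.0.

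For carnitine and amino acid carriers the direction was mixed, with 6 of 9 below 0 in TM180 and 3 of 9 in TM175. Slc25a20, the carnitine-acylcarnitine carrier that admits fatty acids for oxidation, read 551.9, 424.7, 588.1 and 497.2 in TM180, 454.7, 428.5 and 491.7 in TM175, and 696.2, 530.9 and 718.0 in NTG arrays. TM175 was below NTG without overlap (log2 difference -0.49 ± 0.15, adjusted p = 0.230, 0.0941 with extract type). In TM180 the difference was -0.33 ± 0.14 and the arrays overlapped. Slc25a38, a glycine carrier needed for haem synthesis, ranged from 189.5 to 227.5 in TM180, from 197.2 to 211.0 in TM175 and from 226.0 to 269.6 in NTG, a difference of -0.27 in both lines. Slc25a15, an ornithine carrier, differed by -0.14 in TM180 and -0.23 in TM175, and Slc25a45, with no role given here, by 0.18 in TM180 and 0.30 in TM175, all with overlapping arrays. Slc25a29, a basic amino acid carrier, differed by -0.14 in TM180 and 0.05 in TM175.

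Of the 7 carriers of cofactors, nucleotides and iron, 5 were below 0 in TM180 and 6 in TM175. Slc25a51, which imports NAD, ranged from 367.1 to 412.2 in TM180, from 313.0 to 415.9 in TM175 and from 411.2 to 507.9 in NTG, with differences of -0.27 in TM180 and -0.37 in TM175. Slc25a37, mitoferrin 1, differed by 0.09 in TM180 and 0.13 in TM175, and Slc25a39, linked to glutathione import, by -0.06 in TM180 and -0.11 in TM175. Slc25a46, an outer membrane protein of mitochondrial dynamics, was below NTG without overlap in both lines, at 366.6 to 435.0 in TM180, 369.5 to 391.1 in TM175 and 442.9 to 499.3 in NTG. Slc25a35 was below NTG without overlap too, with differences of -0.32 in TM180 and -0.25 in TM175. Slc25a2, a dim ornithine carrier set, was highest in TM175 array 1, at 27.3 beside 15.3 to 19.6 in the other 9 arrays. The uncoupling-protein-like Slc25a14 differed by 0.17 in TM180 and 0.34 in TM175, with 0.49 among single hearts and 0.03 between the pools in TM175.

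Mtch2 had the largest negative difference of all 57 genes in both lines. It read 370.0, 359.7, 359.5 and 421.9 in TM180, 296.2, 369.0 and 361.8 in TM175, and 553.2, 476.4 and 628.7 in NTG arrays. All 7 transgenic arrays were below all 3 controls. On genotype alone the log2 difference was -0.54 ± 0.12 in TM180 (adjusted p = 0.0931) and -0.69 ± 0.13 in TM175 (adjusted p = 0.137). With extract type in the model Mtch2 fell to 0.695 of NTG in TM180 (95% interval 0.599 to 0.806, adjusted p = 0.0178) and to 0.620 of NTG in TM175 (0.530 to 0.726, adjusted p = 0.0309). Among single hearts the difference was -0.50 in TM180 and -0.63 in TM175, and between pools it was -0.58 in TM180 and -0.80 in TM175.

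Leaving out 1 array at a time in the model with extract type kept every Mtch2 difference negative, from -0.60 to -0.48 in TM180 and from -0.79 to -0.62 in TM175. The TM180 call held in 6 of 10 fits and was lost without NTG array 1 or 3 or without TM180 array 2 or 4. The TM175 call held in 5 of 10 and was lost without TM175 array 1 or 3, NTG array 1 or 3 or TM180 array 4, with adjusted p up to 0.181. Without TM175 array 1, the array that stood apart on sex-linked genes, the TM175 value was -0.62 (adjusted p = 0.0696). Mtch2 had 6 probe sets, which did not move alike. A set at 118.1 in NTG differed by -0.19 in TM180 and -0.60 in TM175, while a set at 346.6 in NTG differed by -0.09 in TM180 and -0.12 in TM175.

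Mtch1, the outer membrane relative of Mtch2, read 828.1, 820.0, 645.6 and 653.9 in TM180, 620.3, 617.3 and 535.3 in TM175, and 617.0, 578.1 and 481.1 in NTG arrays. Every TM180 array was above every other array, with a difference from NTG of 0.40 ± 0.13 (adjusted p = 0.290, 0.0862 with extract type). TM175 differed from NTG by 0.09 ± 0.14.

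Set directly against each other, TM180 lay above TM175 for import genes, and carriers split evenly. Of the 22 import genes 21 were above 0, with a median log2 difference of 0.20, against 46.6% of all genes above 0 and 53.4% below. For 6 of them every TM180 array was above every TM175 array, against 6.22% of all probe sets, and 0 lay wholly below, against 7.37%. Carriers split into 17 above and 16 below with a median of 0.00. Other mitochondrial lists, described below, also lay mostly above 0. Mitochondrial ribosomal genes were above 0 for 64 of 74 (median 0.13) and complex I genes for 29 of 39 (median 0.04). Other genes of import and processing were above 0 for 21 of 25 (median 0.12). No member passed the limma test in this comparison, in which 0% of all probe sets were called on genotype alone and 0.0221% were called higher and 0.00442% lower with extract type. At an unadjusted p under 0.05, 4 import genes and 1 carrier were higher in TM180, and 0 import genes and 0 carriers lower. Of all 22626 probe sets, 1559 were higher and 1442 lower at that threshold.

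The import genes with the largest differences here were Tomm70a (0.42 ± 0.13), Tomm22 (0.40 ± 0.12) and Timm10 (0.36 ± 0.09), with adjusted p of 0.306, 0.306 and 0.302 on genotype alone. Among single hearts 22 of 22 import genes were above 0 with a median of 0.23, while between the pools 14 were above and 8 below with a median of 0.14. Slc25a23, a calcium-regulated ATP-Mg/phosphate carrier, was the 1 carrier without overlap. It read 182.4, 181.2, 177.7 and 157.1 in TM180, 110.3, 133.4 and 110.0 in TM175, and 169.5, 120.1 and 121.0 in NTG arrays. Its log2 difference between the lines was 0.57 ± 0.14 (adjusted p = 0.302, 0.0757 with extract type).

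Pools and single hearts differed for 5 of 33 carriers in limma, 1 higher and 4 lower in pools, and for 0 of 22 import genes. With genotype in the model, 10% of all probe sets were called higher in pools and 12.2% lower. The carrier counts were not above these shares. Slc25a30, an uncoupling-protein-like carrier, was higher in pools by 1.12 ± 0.15 (SE) on the log2 scale (adjusted p = 3.6e-04), with 315.6, 209.5 and 234.2 in the TM180, TM175 and NTG pools and 93.2 to 146.1 in single hearts. Slc25a44, a branched-chain amino acid carrier, was lower in pools by 0.57, as were Slc25a53, Slc25a48 and Slc25a47, by 0.49, 0.46 and 0.25.

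Other genes of protein import and processing, taken from a fixed list of presequence translocase motors, peptidases, chaperones and sorting factors, lay on the same side. Of 25 measured, 21 were below 0 in TM180 with a median of -0.15, and 23 in TM175 with a median of -0.26. With extract type in the model 1 was called lower in TM180, beside 0.539% of all probe sets, and 2 in TM175, beside 0.734%. None was called higher, beside 1.47% in TM180 and 0.128% in TM175. Clpx, the unfoldase of the matrix Clp protease, read 260.5, 205.8, 241.3 and 234.3 in TM180, 202.9, 221.8 and 193.9 in TM175, and 356.8, 306.7 and 349.5 in NTG arrays. With extract type it was called lower in TM180 (log2 difference -0.52, adjusted p = 0.0236) and in TM175 (-0.71, adjusted p = 0.0309). On genotype alone neither call held (adjusted p = 0.0649 in TM180 and 0.111 in TM175), and without TM175 array 1 the TM175 call was lost (adjusted p = 0.0696). Mtx2, a metaxin of the outer membrane sorting machinery, was called lower in TM175 with extract type (-0.76, adjusted p = 0.0309), at 192.6 to 212.2 against 291.1 to 411.4 in NTG. That call too was absent on genotype alone (adjusted p = 0.131) and without TM175 array 1 (adjusted p = 0.0713).

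In a fixed list of other membrane transport genes, 14 of 20 were below 0 in TM180 and 13 of 20 in TM175. Mpc1, a subunit of the pyruvate carrier, read 1597, 1509, 1656 and 1718 in TM180, 1501, 1475 and 1565 in TM175, and 2179, 1827 and 2417 in NTG arrays. With extract type the difference was -0.38 in TM180 (adjusted p = 0.0571), and Mpc1 was called lower in TM175 (-0.49, adjusted p = 0.0469). The TM175 call was absent on genotype alone (adjusted p = 0.167) and without TM175 array 1 (adjusted p = 0.0971). It was the 1 call among the 20, beside 0.734% of all probe sets called lower. The porins Vdac1, Vdac2 and Vdac3 differed by -0.10, -0.06 and -0.16 in TM180 and by -0.00, -0.16 and -0.31 in TM175.

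Other mitochondrial gene families lay on the same side of NTG. Respiratory complex I genes (Nduf) were below 0 for 39 of 39 in TM180 with a median of -0.19, and for 38 of 39 in TM175 with a median of -0.23. Mitochondrial ribosomal protein genes (Mrpl and Mrps) were below 0 for 67 of 74 in TM180 with a median of -0.17, and for 72 of 74 in TM175 with a median of -0.31. Beside them carriers stood at -0.12 in TM180 and -0.11 in TM175, and import genes at -0.08 in TM180 and -0.26 in TM175. The difference between these lists was not tested.

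**Figure D4:**
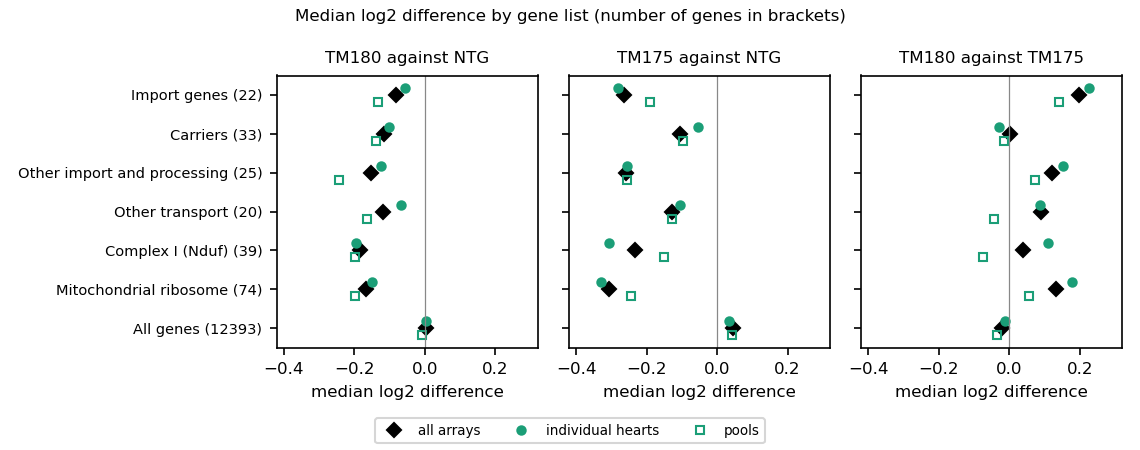
Median log2 difference by gene list for the 3 comparisons; diamonds are all 10 arrays, circles single hearts only, open squares the pools. Import genes sit at -0.26 in TM175 against NTG and at 0.20 in TM180 against TM175, while carriers sit near -0.1 against NTG in both lines and near 0 between them.

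Probe sets of the same gene disagreed in sign for many members. Of 27 members with more than 1 set, all sets shared a sign for 13 in TM180 against NTG, for 21 in TM175 against NTG and for 15 in TM180 against TM175. The members hold 115 probe sets, of which 2 were called in TM180 and 4 in TM175 with extract type in the model, beside 2.01% and 0.862% of all probe sets.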

How the data were processed

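Total RNA of mouse ventricle was hybridised to Affymetrix arrays, 1 extract per array. The authors deposited 1 linear intensity per probe set and array. RMA is named in the submitters' processing notes, and its version is not given in the sources used here. In large values a point set off the last 3 digits. It was removed for 7615 values in 1034 probe sets, and 251 probe sets could not be settled. After log2, 22626 probe sets without the 64 controls were tested with limma 3.58.1 in R 4.3.3, with 1 mean per genotype over all 10 arrays, two-sided, Benjamini-Hochberg adjustment and a threshold of 0.05. Extract type was added as a covariate. Intervals are 95%, and the number of arrays limits precision. Of the probe sets on the array, 20380 name 1 gene, 691 several and 1555 none, and only the first were used. The brightest set stands for a gene, so a dimmer set can disagree. The text names a fixed list of members, every called member, the 5 largest non-overlapping differences in each direction, the 3 brightest and 3 dimmest members, and members called between pools and single hearts. Other members were named after their values were seen. Members and lists were chosen with earlier results of these data known. The fit was tested on simulated data. Summaries used pandas 2.3.3 and numpy 2.4.6 under Python 3.11.15, and figures were drawn by matplotlib 3.10.9.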

Additional observations from a re-analysis of the deposited data

Results flagged for a closer look

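Dixon's critical value for 4 samples is exceeded by chance in about 1 in 20 groups, where groups are not chosen by their values. The groups here were named members, some chosen for large differences or for calls between pools and single hearts, so that rate need not apply. In 4 of 40 gene-level groups tested, 1 TM180 array exceeded that value by its gap to its neighbour, as a share of the group's range. For 3 of them it was array 4, the pool: Slc25a30 read 315.6 there and 98.38 to 110.3 in the single hearts, Timm22 read 343.6 there and 274.0 to 283.7 in the single hearts, and Mtch2 read 421.9 there and 359.5 to 370.0 in the single hearts. For Timm13 it was array 3, a single heart, at 261.2 beside 435.4 to 438.9 in the other TM180 arrays.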

How the results depend on the processing

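No member was called on genotype alone in any comparison, so there was no called difference that could change sign in the alternative runs. With extract type in the model, 1 carrier was called in TM180 against NTG, beside 2.01% of all probe sets. In TM175 against NTG 1 carrier and 1 import gene were called, beside 0.862%. With array weights, 2 carriers were called in TM180, 13 carriers and 11 import genes in TM175 and 1 carrier in TM180 against TM175, beside 3.33%, 23.7% and 10.3% of all probe sets called. Array weights gave medians of -0.079 for carriers in TM180, -0.060 for carriers and -0.38 for import genes in TM175, and -0.050 for carriers in TM180 against TM175. Renewed quantile normalization gave -0.035 for carriers and -0.13 for import genes in TM175, and -0.054 for carriers and 0.076 for import genes in TM180 against TM175. The carrier median in TM175 was -0.15 with bright probe sets only and -0.054 with individual extracts only. The mean of probe sets gave -0.047 for carriers in TM180 against TM175. Without TM175 array 1 and with extract type, the carrier median in TM175 was -0.049. In that fit 1 carrier was called in TM180, beside 2.14% of all probe sets. The cause of these shifts was not tested. Leaving out each array in turn gave medians of -0.19 to -0.030 for import genes in TM180, and of -0.14 to -0.051 for carriers and -0.39 to -0.17 for import genes in TM175, with 0 calls throughout. The same with extract type, chosen after seeing the data, called 0 to 1 carriers in TM180, 0 to 3 carriers and 0 to 5 import genes in TM175 and 0 to 2 carriers in TM180 against TM175, with carrier medians in TM175 of -0.13 to -0.033. The highest of these counts came where 5.52% of all probe sets were called in TM175 (without NTG array 2) and 3.91% in TM180 against TM175 (without NTG array 1). The single carrier calls in TM180 stood beside 1.62% to 1.94%, and without TM175 array 2 1 carrier and 1 import gene were called in TM175, beside 0.473%. Correlations between arrays of different genotypes were taken after subtracting each probe set's genotype mean. On those deviations, same-numbered arrays correlated from -0.52, a single heart with a pool, to 0.71, a pool with a pool. Differently numbered arrays of different genotypes correlated from -0.72 to 0.81. Both ranges mix pools with single hearts. Between single hearts, same-numbered arrays ran from -0.11 to 0.48 and differently numbered arrays from 0.02 to 0.66. Same-numbered single hearts were thus not more alike by this measure. The replicate block called 0 members and gave import medians of -0.14 in TM180 and -0.26 in TM175, and 0.16 in TM180 against TM175. Uncalled differences of named members changed sign in 73 alternative values for TM180, 27 for TM175 and 63 for TM180 against TM175.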
